A study of Mus musculus with 3 samples.

Results

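Toll-like receptors are innate immune receptors that recognize microbial products, nucleic acids and molecules released from damaged cells. *Tlr1*, *Tlr2* and *Tlr4* encode receptors of the cell surface, with *Cd14* as a co-receptor that passes lipopolysaccharide and lipoproteins to TLR4 and TLR2. *Tlr3*, *Tlr7*, *Tlr8*, *Tlr9* and *Tlr13* encode endosomal receptors of double-stranded RNA, single-stranded RNA, CpG DNA and bacterial ribosomal RNA. *Myd88* encodes the adaptor that most of these receptors share, TLR3 being the exception. In the brain, microglia and infiltrating myeloid cells are the cells best known for these receptors. The genes described here are these 8 receptors, *Cd14* and *Myd88*, 10 of the 31053 genes in the count matrices, selected by symbol.

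The cells came from a syngeneic GBM model in which BT0309 brain tumor-initiating cells, 1 luciferase- and GFP-expressing line made from *Nf1*- and *Trp53*-mutant NPcis mice on a C57BL/6J background, were implanted into the right striatum of female C57BL/6 mice 6 to 8 weeks of age. Vehicle mice received saline and niacin mice received 100 mg/kg of niacin daily by intraperitoneal injection from day 7. Live cells of a 2 mm section around the injection site were sorted at 4 weeks after a Percoll gradient, from pools of 5 mice by the study's methods and of 4 brain tissues by the sample labels. There was 1 vehicle library (vehicle replicate 2) and 2 niacin libraries (niacin replicates 1 and 2), so the spread between vehicle libraries is unknown and treatment and library cannot be told apart. The 3 libraries held between 8301228 and 10359526 unique molecular identifiers (UMIs, distinct captured RNA molecules).

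Of 5571 distinct barcodes, 924 occurred in more than 1 library, 472 of them in 2 and 452 in 3. The deepest copy of such a barcode held a median of 15.7 times the UMIs of the next copy. The deepest copies held a median of 11182 UMIs, so deep cells were among those left out. All copies of a shared barcode were left out of every library. This removed 2050 of 5528 barcodes, counted per library, that passed the filters on genes and mitochondrial UMIs. Levels by class leave out shared barcodes unless stated, and some results are also given with the deepest copy kept. Without shared barcodes 3478 cells were left. Of these, 3005 were assigned to a class from UMIs of marker genes that include none of the 10 genes. Classes that reached 10 cells in each library were microglia-like (360, 618 and 879 cells, here and below in the order vehicle replicate 2, niacin replicate 1 and niacin replicate 2), monocyte- and macrophage-like (183, 39 and 47, MDM-like below), neutrophil-like (61, 32 and 28), T cell-like (133, 94 and 120), B cell-like (15, 22 and 34) and choroid plexus-like cells (25, 51 and 97). All 7 microglial markers, among them *Tmem119* and *P2ry12*, were each found in at least 10% of the microglia-like cells. Of the 12 markers of monocytes and macrophages, 11 were each found in at least 10% of the MDM-like cells. By the marker split given below, most cells of this class carried monocyte genes, so MDM-like does not mean macrophages alone. Cells of the border-associated macrophage list numbered 2, 3 and 4 and were not compared.

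*Tlr7* and *Tlr8* are neighbours on the minus strand of chromosome X, with 40599 bases between them, and *Tlr13* lies elsewhere on the same chromosome (positions from GENCODE vM21, GRCm38). The RefSeq promoter table held 7 of the 10 genes, and for 4 of them the 150 bases upstream of the outermost annotated start were complete. These 4 are shown, being complete, and all held the motif GAGGAA, the core bound by PU.1 and other ETS factors. Capitals mark each match, on either strand, to GAGGAA or to the C/EBP-like motif TTGCNNAA, where N is any base. Sequences read 5′ to 3′ on the strand of the gene.

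*Tlr1*, chr5:64933564-64933713, minus strand, GRCm38.p6: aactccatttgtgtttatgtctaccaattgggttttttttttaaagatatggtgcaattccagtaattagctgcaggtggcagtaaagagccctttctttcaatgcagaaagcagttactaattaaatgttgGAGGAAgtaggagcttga
*Tlr8*, chrX:167264330-167264479, minus strand, GRCm38.p6: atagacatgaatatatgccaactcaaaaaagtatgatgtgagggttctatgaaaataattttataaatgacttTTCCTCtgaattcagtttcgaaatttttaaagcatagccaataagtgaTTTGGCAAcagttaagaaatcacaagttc
*Tlr9*, chr9:106222448-106222597, plus strand, GRCm38.p6: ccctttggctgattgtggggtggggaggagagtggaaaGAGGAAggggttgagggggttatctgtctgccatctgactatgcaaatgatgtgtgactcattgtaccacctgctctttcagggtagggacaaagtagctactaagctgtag
*Tlr13*, chrX:106143054-106143203, plus strand, GRCm38.p6: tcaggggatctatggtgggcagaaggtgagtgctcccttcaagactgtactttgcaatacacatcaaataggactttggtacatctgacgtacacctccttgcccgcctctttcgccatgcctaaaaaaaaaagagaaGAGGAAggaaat

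GAGGAA was found in all 4 windows, nearest to the start in *Tlr13*, at 12 to 7 bases before it, and in *Tlr1*, at 18 to 13 bases. Of all 32851 RefSeq promoters, 14.5% held this motif within 150 bases upstream of the start. The C/EBP-like motif was found in the *Tlr8* window alone among the 4, at 29 to 22 bases before the start, and in 5.46% of all promoters. An interferon-stimulated element (in 1.59% of all promoters) and an NF-κB-like motif (in 11.9%) were not in these 4 windows.

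The receptors differed in the myeloid classes in which they were measured. In microglia-like cells a UMI of at least 1 of the 8 receptors was found in 73.1%, 66.7% and 63.3% of cells thinned to 2000 UMIs, against 5.8%, 3.9% and 1.0% of T cell-like cells. T cell-like cells stand here for cells in which most of these receptors are low, and their UMIs are not background alone, since *Tlr1* made up 71.9% of the receptor UMIs of vehicle T cell-like cells. Median depths before thinning were 6847.5, 4440 and 6241 UMIs in these microglia-like cells and 5849, 6037 and 6474.5 UMIs in the T cell-like cells. The share was 58.2%, 67.9% and 57.9% in MDM-like cells and 63.6%, 50% and 19.2% in neutrophil-like cells. Among microglia-like cells 30.3%, 24.7% and 24.7% held UMIs of 2 or more receptors, against 0 of 104, 51 and 100 T cell-like cells. Levels below are UMIs of a gene per 1000000 UMIs of the class and library (CPM), and each interval or floor covers counting error only.

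**Figure D1:**
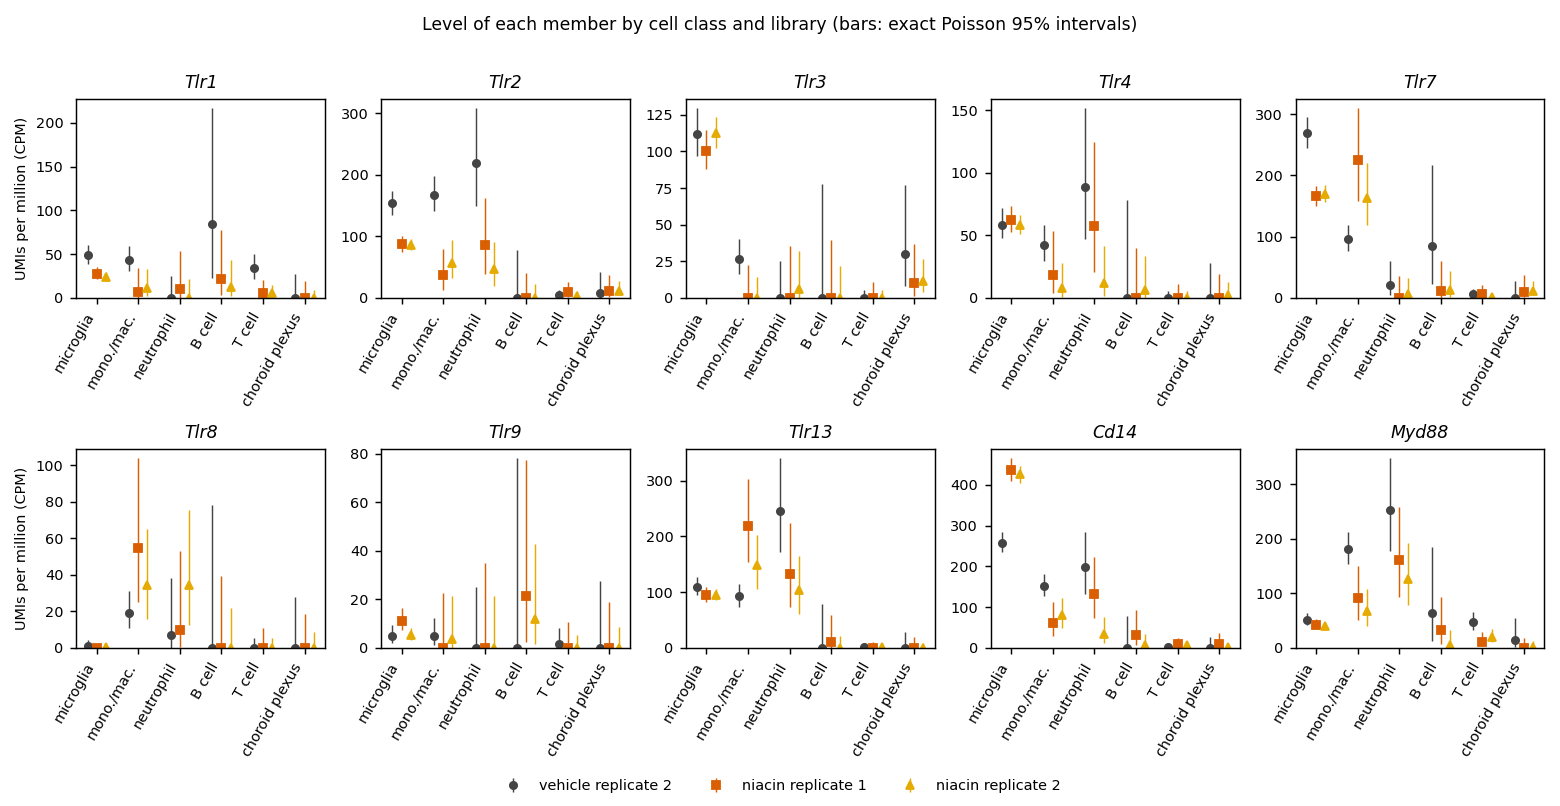
Level of each of the 10 genes (CPM, linear axes) in 6 cell classes, with 1 point per library and exact Poisson 95% intervals. *Tlr3* is high in microglia-like cells in all 3 libraries (101 to 113 CPM), *Tlr8* is near 0 there, and T cell-like and choroid plexus-like cells are low for most genes.

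Among surface receptors, *Tlr2* (chr3:83836272-83841767, minus strand), which recognizes lipoproteins together with TLR1 or TLR6, was measured in all 3 myeloid classes. Its level was 153, 86.8 and 86.0 CPM in microglia-like cells, 168, 36.4 and 56.9 CPM in MDM-like cells and 218, 85.6 and 46.1 CPM in neutrophil-like cells. The vehicle library was highest in each class, and the classes overlapped. *Tlr1* (chr5:64924679-64933563, minus strand) was lower, at 48.9, 27.6 and 23.5 CPM in microglia-like cells and 43.1, 6.07 and 11.4 CPM in MDM-like cells. *Tlr1* is a close paralog of *Tlr6*, and the effect of reads that match both was not tested. Its highest mean was in B cell-like cells (39.3 ± 39.6 CPM, SD, n = 3), on 4, 2 and 2 UMIs, which does not separate that class from microglia-like cells (33.3 ± 13.6 CPM). T cell-like cells held 23, 2 and 4 *Tlr1* UMIs (33.5, 5.75 and 5.73 CPM), again highest in the vehicle library.

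*Tlr4* (chr4:66827584-66930284, plus strand), the lipopolysaccharide receptor, was at 58.5, 62.3 and 58.0 CPM in microglia-like cells, the smallest spread between libraries, relative to the mean, of the 10 genes in that class. It was at 41.9, 18.2 and 7.59 CPM in MDM-like cells and at 88.7, 57.1 and 11.5 CPM in neutrophil-like cells. Its co-receptor *Cd14* was at 258, 437 and 426 CPM in microglia-like cells, above the other 5 classes compared in every library. It had the highest mean of the 10 genes in that class, although *Tlr7* was above it in the vehicle library. In MDM-like cells *Cd14* was at 152, 60.7 and 79.7 CPM and in neutrophil-like cells at 198, 133 and 34.5 CPM. A *Cd14* UMI was found in 37.2%, 52.8% and 53.2% of thinned microglia-like cells, against 1.0%, 0.0% and 1.0% of T cell-like cells.

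Of the endosomal receptors, *Tlr3* (chr8:45395665-45411080, minus strand, overlapped on the other strand by *Gm45542*) had no overlap between microglia-like cells and any other class. It was at 112, 101 and 113 CPM there and at 26.3 CPM in vehicle MDM-like cells, with no UMI in either niacin library, which allows up to 18.2 and 11.4 CPM. Neutrophil-like cells held 1 *Tlr3* UMI and T and B cell-like cells none. Microglial marker genes summed to between 54.7 and 112 CPM in MDM-like cells, highest in the vehicle library, against 10121 to 12343 CPM in microglia-like cells, and the part of such RNA in the *Tlr3* value was not tested. Choroid plexus-like cells came next, at 30.0, 10.2 and 11.5 CPM on 4, 2 and 5 UMIs. With the deepest copy of shared barcodes kept, their *Tlr3* had a mean of 37.5 CPM (14.4 to 70.7 CPM). Microglia-like cells were then at 98.8 CPM or more.

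*Tlr8* (chrX:167242696-167264329, minus strand) showed the opposite order. Microglia-like cells held 2, 0 and 1 *Tlr8* UMIs among 1857 cells, whereas MDM-like cells held 16, 9 and 9 (19.1, 54.7 and 34.2 CPM). Pooled over libraries the level was 69.3 times higher in MDM-like cells (exact 95% interval 21.8 to 353, counting error only). The size of this ratio depended on the library, at 15.9 (3.73 to 142) in the vehicle library, on 16 against 2 UMIs, and 255 (40.3 to 10639) in the niacin libraries, on 18 against 1. With the deepest copy of shared barcodes kept it was 50.3 (18.8 to 190). Neutrophil-like cells held 1, 1 and 6 *Tlr8* UMIs, or 6.82, 9.51 and 34.5 CPM, which overlapped the MDM-like range. Its neighbour *Tlr7* (chrX:167304929-167330558, minus strand), a receptor of single-stranded RNA like TLR8, was measured in both classes, at 269, 166 and 170 CPM in microglia-like cells and 95.7, 225 and 163 CPM in MDM-like cells. With the deepest copy of shared barcodes kept, *Tlr7* was at 167 to 247 CPM in microglia-like and 76.1 to 136 CPM in MDM-like cells. The classes overlapped without shared barcodes but not in that setting. Neutrophil-like cells held 3, 0 and 1 UMIs of *Tlr7*.

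*Tlr13* (chrX:106143204-106160493, plus strand), the receptor of bacterial ribosomal RNA, was measured in all 3 myeloid classes and was at most 1 UMI per library in T and B cell-like cells. Its level was 110, 94.8 and 95.2 CPM in microglia-like cells, 92.1, 219 and 148 CPM in MDM-like cells and 246, 133 and 104 CPM in neutrophil-like cells. *Tlr9* (chr9:106222598-106226883, plus strand), the CpG DNA receptor, was the lowest receptor in microglia-like cells apart from *Tlr8*, at 4.83, 11.1 and 5.23 CPM in microglia-like cells. B cell-like cells held 0, 2 and 2 *Tlr9* UMIs, too few to place them above microglia-like cells. *Myd88* (chr9:119335934-119341411, minus strand) overlaps *Slc22a14* on its own strand and *Acaa1a* on the other, and the effect of this on its count was not tested. It was at 252, 162 and 127 CPM in neutrophil-like and 182, 91.1 and 68.3 CPM in MDM-like cells. In microglia-like cells it was at 51.3, 42.7 and 39.7 CPM, and this order held in every library. With the deepest copy of shared barcodes kept, microglia-like cells stayed lowest (mean 44.7 CPM). The other means then changed order, at 115 ± 72.5 CPM in neutrophil-like and 129 ± 50.3 CPM in MDM-like cells.

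**Figure D2:**
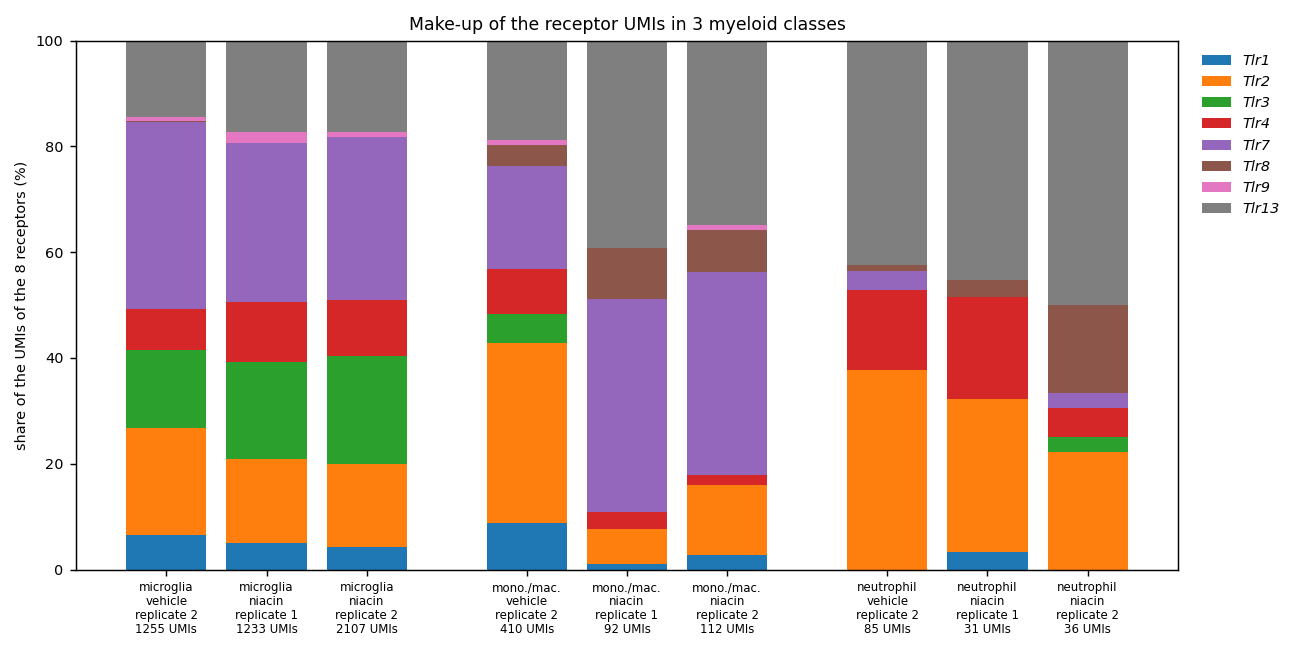
Share of each receptor among the UMIs of the 8 receptors, for 3 myeloid classes and 3 libraries, with the number of receptor UMIs under each bar. *Tlr13* makes up 42.4% to 50% in neutrophil-like and 14.5% to 17.3% in microglia-like cells, and *Tlr3* 14.8% to 20.5% in microglia-like cells.

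The make-up of the receptor UMIs thus differed by class, as the plot of receptor shares shows. A 3′ UMI counts a molecule once whatever its length, and the capture of each gene was not measured, so the shares describe captured molecules. In microglia-like cells *Tlr7* took 35.5%, 30.2% and 30.8% of the receptor UMIs and was first in every library. In neutrophil-like cells *Tlr13* took 42.4%, 45.2% and 50%, on 85, 31 and 36 receptor UMIs. In MDM-like cells *Tlr2* led in the vehicle library (34.1%), and *Tlr7* (40.2% and 38.4%) and *Tlr13* (39.1% and 34.8%) led in the niacin libraries.

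Across the 18 sums of class and library, the genes whose levels ran most like a member were, by Pearson r of log2(CPM + 10), *Lrrc25* for *Tlr13* (0.99), *Gab2* for *Tlr2* (0.97), *Dpep2* for *Tlr8* (0.96) and *Arhgef40* for *Tlr3* (0.96). *Stard9* came first for *Cd14* (0.95), *Basp1* for *Tlr4* (0.94), *Acer3* for *Tlr7* (0.94), *B430306N03Rik* for *Myd88* (0.93) and *Hivep3* for *Tlr1* (0.92). The points share libraries and classes, so these values describe likeness and carry no test.

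Microglia-like and MDM-like cells were then compared within libraries. In edgeR's quasi-likelihood test of the summed UMIs of microglia-like and MDM-like cells, with library as a block, 9 of the 10 genes were tested and 4 had an adjusted p under 0.05, 2 in each direction, where 33.7% of all 9050 genes tested were called. *Tlr3* was higher in microglia-like cells by 2.89 on the log2 scale (SE 0.57, adjusted p = 0.0028), and *Cd14* by 1.77 (SE 0.41, adjusted p = 0.0073). *Tlr8* was lower (adjusted p = 0.00022), with its size given above as a ratio because the fitted value of so few UMIs depends on the prior count. *Myd88* was lower by a log2 difference of -1.42 (SE 0.30, adjusted p = 0.0041). *Tlr4* (1.10, SE 0.43), *Tlr13* (-0.61, SE 0.29), *Tlr1* (0.49), *Tlr2* (0.27) and *Tlr7* (0.29) did not pass, with edgeR adjusted p of 0.071, 0.13, 0.41, 0.54 and 0.55.

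The median log2 difference was 0.29 over the 9 tested members and 0.16 over all genes. *Cd14* lost its call without niacin replicate 2 (log2 difference 1.49, edgeR adjusted p = 0.056), and *Tlr4* (2.23) and *Tlr13* (-1.01) gained one without vehicle replicate 2. With the deepest copy of shared barcodes kept, all 4 calls held.

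**Figure D3:**
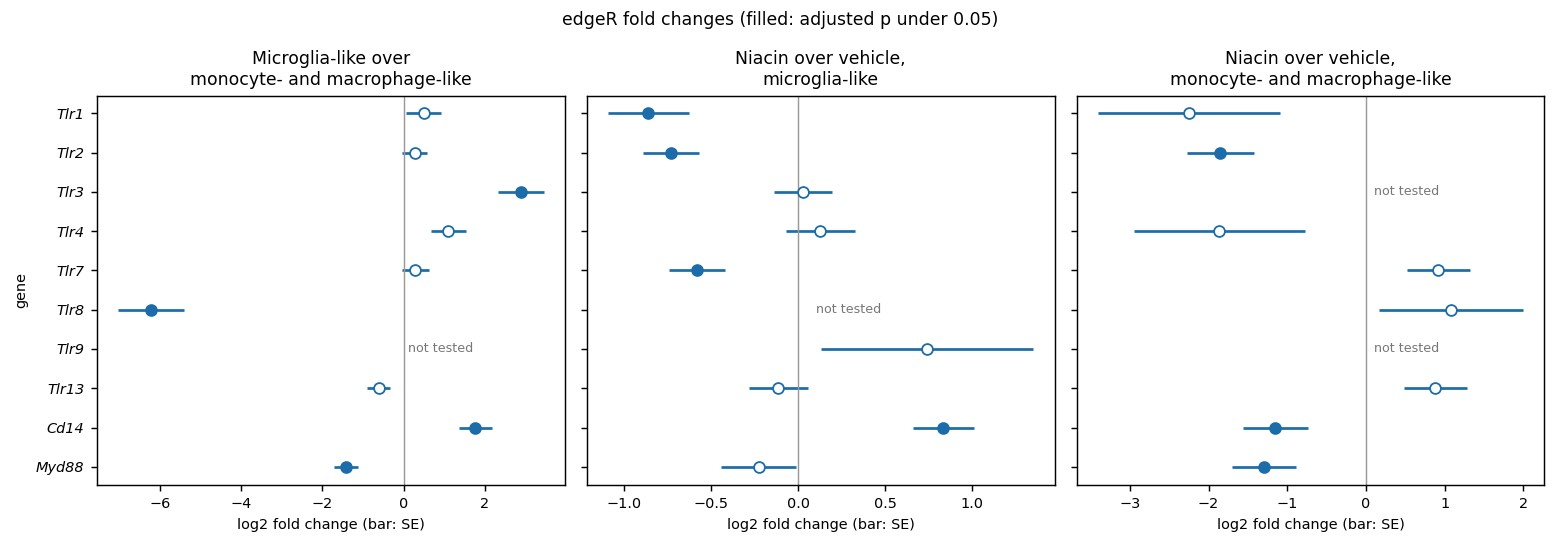
edgeR log2 fold changes of the 10 genes with their standard errors in 3 comparisons; filled points have an adjusted p under 0.05 and genes removed by the count filter are marked as not tested. *Cd14* is higher in the niacin libraries in microglia-like cells (0.84) and lower in MDM-like cells (-1.15).

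Other genes of the pathway were taken from 8 lists of 82 genes, of which 68 were tested here. Of these, 9 were higher and 16 lower in microglia-like cells, 36.8% of those tested, against 33.7% of all genes tested. Among co-receptors and chaperones, *Ly86* (2.38), the partner of CD180, and *Unc93b1* (1.22), which carries nucleic acid-sensing receptors to endosomes, were higher. The scavenger receptor *Cd36* was lower, at 24, 0 and 3 UMIs against 76, 104 and 97 in MDM-like cells. Of the other receptors, *Tlr12* was higher (2.50, on 8, 1 and 0 UMIs in MDM-like cells). Kinases and ligases had 1 of 16 higher, *Peli2* (2.30), and 3 lower, *Ikbke* (-3.39), *Irak4* (-1.30) and *Ikbkb* (-1.27). Transcription factors had *Irf8* higher (0.81) and 5 of 9 lower, led by *Irf7* (-3.87), the interferon regulator, and *Nfkb2* (-1.44). Inhibitors had 3 of 9 lower, *Irak3* (-3.44), *Tnip1* (-2.14) and *Nfkbie* (-1.13), and the adaptors and ligands had none of 5 called each. Target genes split. *Il1a* (3.91, on 10, 0 and 1 UMIs in MDM-like cells), *Ccl4* (2.76), *Ccl3* (1.98) and *Ccl2* (1.55) were higher in microglia-like cells. *Il1b* (-4.42) and *Ccl5* (-2.66) were lower there. So were *Cxcl2* (6, 1 and 9 UMIs against 180, 15 and 37 in MDM-like cells) and *Cd40* (8, 0 and 6 against 105, 3 and 16).

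Against MDM-like cells, neutrophil-like cells had lower *Tlr7*, by a log2 difference of -3.60 (SE 0.67, edgeR adjusted p = 0.0068), the single call among the 5 genes tested, where 30.2% of 2874 genes were called. Without niacin replicate 2 the *Tlr7* call was lost (log2 difference -3.44, adjusted p = 0.063 by edgeR). *Tlr2* (0.62), *Tlr13* (0.46), *Cd14* (0.43) and *Myd88* (0.99, SE 0.37) did not pass, *Myd88* with an edgeR adjusted p of 0.077, and the median over the 5 was 0.46 against -0.09 over all genes. Summed neutrophil markers ran from 23734 to 70014 CPM between the neutrophil-like sums, highest in niacin replicate 2, which had the lowest *Tlr2*, *Tlr4*, *Tlr13*, *Cd14* and *Myd88* of the 3; the part of this in the levels was not tested.

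Of the pathway lists, 39 genes were tested in this comparison, 5 higher and 10 lower (38.5%, against 30.2% of all genes tested). The ligands *S100a8* (10.21) and *S100a9* (10.11) and the targets *Cxcl2* (4.0), *Ptgs2* (3.62) and *Il1b* (2.53) were higher in neutrophil-like cells. *Cd36* (0, 0 and 1 UMIs against 76, 104 and 97), *Ly86* (-5.01), *Hsp90b1* (-2.48), *Irf8* (-4.26), *Irf5* (-2.18), *Nfkb1* (-1.43), *Cd180* (-2.57), *Ikbkb* (-1.46), *Hspd1* (-1.80) and *Cd86* (-3.57) were lower.

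In lymphocytes none of the 10 genes had enough UMIs to be tested between B cell-like and T cell-like cells, where 18.7% of 4032 genes were called. Pathway genes did differ, 8 higher and 8 lower of 39 tested (41.0%). B cell-like cells had more *Cd180* (6.25), a TLR-like receptor of B cells, *Ly86* (4.90), *Unc93b1* (3.44), *Irf8* (4.55), *Irf5* (2.68), *Rel* (2.44) and *Cd86* (1.67), and 2, 12 and 11 UMIs of *Cd40* against 0 in T cell-like cells. T cell-like cells had more *Ccl5*, *Cxcl10*, *Ccl4*, *Tnfaip3*, *Socs1*, *Irf7*, *Peli1* and *Cyld*, led by *Ccl5* with 1287, 995 and 2128 UMIs against 2, 1 and 2 in B cell-like cells.

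The niacin and vehicle libraries were then compared within each class, 2 libraries against 1. The spread comes from the 2 niacin libraries alone, with 1 residual degree of freedom, and the vehicle library is assumed to vary like them. The p-values below therefore compare these libraries, and do not show that a difference comes from the treatment. Microglia-like cells of both niacin libraries had more *Cd14* and less *Tlr1*, *Tlr2* and *Tlr7* than those of the vehicle library, and *Tlr3*, *Tlr4* and *Tlr13* lay close together. *Cd14* was at 258 CPM in the vehicle library and at 437 and 426 CPM in the niacin libraries, a log2 fold change of 0.84 (SE 0.17, edgeR adjusted p = 7e-05). *Tlr2* was at 153, 86.8 and 86.0 CPM (-0.73, SE 0.16, edgeR adjusted p = 0.00021).

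*Tlr1* (-0.86, SE 0.23) and *Tlr7* (-0.58, SE 0.16) were lower in the niacin libraries as well, with edgeR adjusted p of 0.0034 and 0.0047. These 4 were the calls among 9 genes tested, where 16.5% of 10509 genes were called. *Tlr3* (0.03, SE 0.17), *Tlr4* (0.13, SE 0.20), *Tlr13* (-0.11, SE 0.17), *Myd88* (-0.23, SE 0.22) and *Tlr9* (0.74, SE 0.61) did not pass. With DESeq2's Wald test, which called 123 genes, *Cd14* held (adjusted p = 0.0029), *Tlr2* (0.11) and *Tlr7* (0.12) did not, and *Tlr1* had no adjusted p. With the deepest copy of shared barcodes kept, the edgeR log2 fold changes of *Cd14*, *Tlr1*, *Tlr2* and *Tlr7* were 0.87, -0.95, -0.72 and -0.47, all called.

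The thinned shares moved the same way for *Cd14* (given above) and for *Tlr7*, at 34.6%, 26.7% and 27.0% of microglia-like cells. *Tlr1* was found in 10.3%, 6.3% and 4.3% of them. The share of cells with a *Tlr2* UMI differed little, at 18.8%, 16.2% and 16.7%, with overlapping exact binomial intervals, in contrast to its level. Immediate early genes, which respond to dissociation, summed to 17581, 19089 and 17100 CPM in these cells, with the vehicle library between the niacin libraries. Neutrophil markers in microglia-like cells summed to 37.4, 84.5 and 67.4 CPM and monocyte and macrophage markers to 107, 36.5 and 25.6 CPM, and their part in the differences was not tested.

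Of the pathway lists, 68 genes were tested in microglia-like cells, 3 higher and 10 lower in the niacin libraries (19.1%). Over all genes tested in this class the share was 16.5%. *Ly96* (0.83), which encodes the MD-2 partner of TLR4, was higher, as were the ligands *S100a9* (1.91) and *S100a8* (1.60), which are abundant in neutrophils. Lower were *Cxcl10* (-2.15), *Il1b* (-1.82) and *Ccl5* (-0.90) among targets, *Irf7* (-2.43), *Irf1* (-1.42) and *Nfkb1* (-0.50) among transcription factors, *Traf6* (-0.84) and *Map3k7* (-0.58) among kinases and ligases, the inhibitor *Tnfaip3* (-0.67) and *Cd36* (24, 0 and 3 UMIs). None of 5 adaptors and 4 other receptors tested was called.

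MDM-like cells had lower *Tlr2*, *Myd88* and *Cd14* in the niacin libraries. *Tlr2* was at 168, 36.4 and 56.9 CPM (log2 fold change -1.85, SE 0.43, edgeR adjusted p = 0.00025). *Myd88* was at 182, 91.1 and 68.3 CPM (-1.29, SE 0.40, edgeR adjusted p = 0.013) and *Cd14* at 152, 60.7 and 79.7 CPM (-1.15, SE 0.41, edgeR adjusted p = 0.036). Of the 127 *Cd14* UMIs of the vehicle library, 35 were in 10 cells with most of their marker UMIs from *Arg1*, a kind of cell found in neither niacin library. Without these cells, a value added after the data were seen, the vehicle level of *Cd14* was 116 CPM. These were 3 of 8 genes tested, where 14.2% of 5207 genes were called. Among all genes called, more were lower than higher in the niacin libraries. *Tlr7* (0.92, SE 0.40), *Tlr13* (0.88, SE 0.40), *Tlr8* (1.08, SE 0.92), *Tlr1* (-2.25, SE 1.16) and *Tlr4* (-1.86, SE 1.09) did not pass. DESeq2's Wald test, which called 90 genes, called none of the 6 members it gave an adjusted p and gave none for *Tlr1* and *Tlr4*. *Cd14* (-0.64) and *Myd88* (-1.21) lost their edgeR calls without the 5% of cells with most UMIs. With the deepest copy of shared barcodes kept, *Tlr1* (-2.13), *Tlr4* (-2.0) and *Tlr3* (-2.88) were called lower as well.

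The libraries differed in what this class held. Cells with most of their marker UMIs from *Ear2*, *Treml4* or *Ace*, genes of non-classical monocytes, were 14 of 183 cells in the vehicle library and 28 of 39 and 33 of 47 in the niacin libraries. Cells with most from *Ly6c2*, *Ccr2*, *Chil3*, *F10* or *Ifitm6*, genes of classical monocytes, were 150, 9 and 14. The class comparison of treatment is therefore also a comparison of unequal mixtures, and the values within each kind of cell are given with the deepest copy of shared barcodes kept, where 247, 24 and 33 cells were of the second kind and 16, 49 and 42 of the first.

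**Figure D4:**
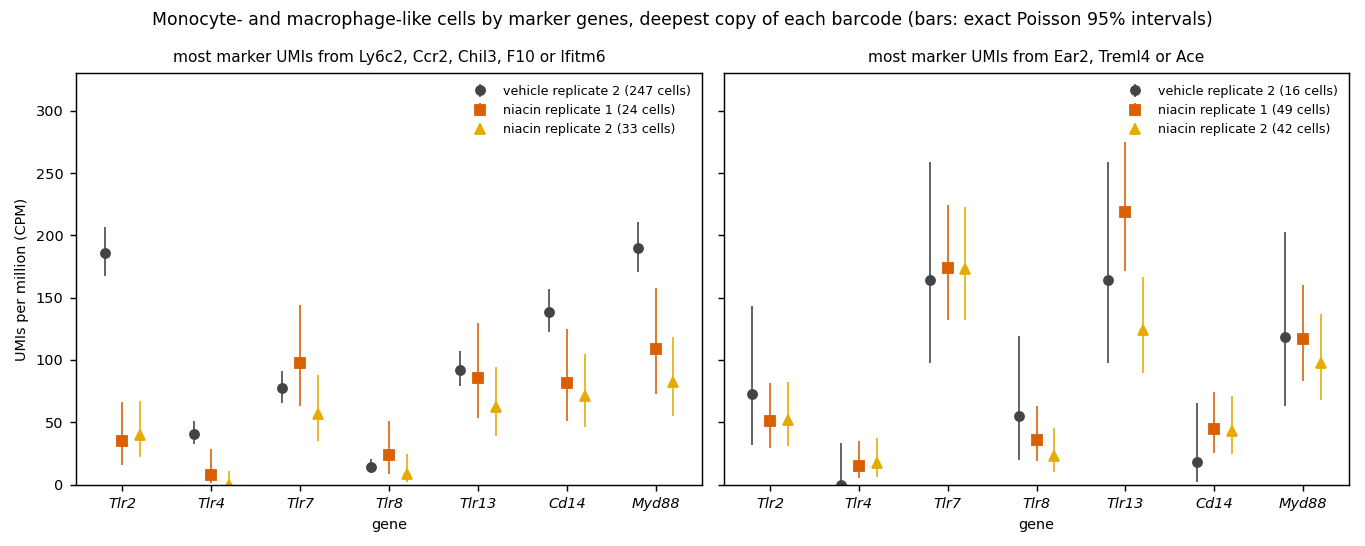
Level (CPM) of 7 genes in MDM-like cells split by the marker genes with most UMIs, 1 point per library with exact Poisson 95% intervals. In cells of the *Ly6c2* and *Ccr2* kind, *Tlr2* is at 186 CPM in the vehicle library and at 35.1 and 39.7 CPM in the niacin libraries. In cells of the *Ear2* kind the intervals of the 3 libraries overlap for *Tlr2*, *Tlr7*, *Cd14* and *Myd88*. For *Tlr13* the intervals of the 2 niacin libraries do not overlap, at 219 (171 to 275) and 124 (89.6 to 167) CPM.

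In cells of the *Ly6c2* and *Ccr2* kind, *Tlr2* was at 186 (95% interval 167 to 207), 35.1 (16.0 to 66.6) and 39.7 (21.7 to 66.7) CPM. *Myd88* was at 190 (171 to 211), 109 (72.5 to 158) and 82.3 (55.1 to 118) CPM, and *Cd14* at 139 (122 to 157), 81.9 (50.7 to 125) and 71.0 (45.9 to 105) CPM. The vehicle library was the highest for these 3 genes within this kind of cell. Without any copy of shared barcodes, on 150, 9 and 14 cells, this did not hold for *Cd14*, at 134, 61.0 and 219.9 CPM on 91, 2 and 14 UMIs. *Tlr7* was at 77.7, 97.5 and 56.8 CPM and *Tlr13* at 92.0, 85.8 and 62.5 CPM, with overlapping intervals.

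In cells of the *Ear2* kind *Tlr7* was at 164, 174 and 173 CPM and *Tlr2* at 72.9, 50.9 and 51.8 CPM. Unlike in the whole class, *Cd14* was lowest in the vehicle library, at 18.2, 45.0 and 43.2 CPM on 2, 15 and 15 UMIs. It was at 0, 64.1 and 35.0 CPM without any copy of shared barcodes. The exact intervals of the libraries overlapped in both settings, so this order is uncertain. *Tlr7* was higher in the *Ear2* kind than in the *Ly6c2* and *Ccr2* kind in all 3 libraries, as were *Tlr13* (164, 219 and 124 CPM) and *Tlr8* (54.7, 36.0 and 23.0 CPM against 14.4, 23.4 and 8.52 CPM). Without any copy of shared barcodes this order did not hold for *Tlr8* in niacin replicate 1, at 48.1 CPM on 6 UMIs in the *Ear2* kind and 91.5 CPM on 3 UMIs in the other. Both kinds were defined after the data were seen, and no test was made between them.

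Of the pathway lists, 60 genes were tested in this class, 2 higher and 17 lower in the niacin libraries (31.7%). Among 13 targets tested 8 were lower. They included *Ptgs2* (88, 0 and 0 UMIs), *Cxcl10* (615, 0 and 2 UMIs) and *Nos2* (36, 0 and 0 UMIs), given as UMIs because their fitted values depend on the prior count, and *Ccl2* (-2.98). *Irf7* (-3.29) and *Irf1* (-1.76), the inhibitors *Socs1* (-2.28), *Tnfaip3* (-1.48) and *Socs3* (-1.29), *Peli1* (-1.20), *Ly86* (-1.06), *Vcan* (89, 0 and 0 UMIs) and *Hspa1a* (104, 2 and 1 UMIs) were lower too. *Cd36* (2.35) and *S100a9* (1.13) were higher. Over all genes tested in this class the share called was 14.2%, and more of those were lower than higher as well.

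The difference between niacin and vehicle libraries was not the same in microglia-like and MDM-like cells for 3 of the 9 genes tested, by the interaction of class and group in edgeR, which again rests on 1 vehicle library and where 5.37% of 9050 genes were called. *Cd14* differed by 1.96 on the log2 scale (SE 0.41, edgeR adjusted p = 0.00013), with the niacin libraries higher in microglia-like cells and lower in the other class as a whole. *Tlr7* differed by -1.51 (SE 0.37, edgeR adjusted p = 0.0017). *Tlr3* passed because its UMIs were 22, 0 and 0 in MDM-like cells and 186, 226 and 431 in microglia-like cells. With the deepest copy of shared barcodes kept, *Tlr2* (1.18), *Tlr4* (2.02) and *Myd88* (0.83) passed too. The unequal mixtures described above enter this comparison as well. Over the pathway lists 9 genes of 68 had a higher and 2 a lower value in microglia-like cells (16.2%), with *Cxcl10*, *Hspa1a*, *Ccl2* (2.83), *Ccl4* (2.27), *Socs1* (1.84), *Socs3* (1.62), *Ccl5* (1.49) and *Ly86* (1.19) among the former and *Cd36* (-6.87) and *Cd180* (-1.35) the latter.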

How the data were processed

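Single-cell RNA-seq of 3 libraries was analyzed. The authors deposited unnormalized UMI counts per gene and barcode, made from Chromium 3′ v3.1 libraries with Cell Ranger 3.1 (STAR) on mm10. The 10 members and the gene lists were chosen with earlier results of these data known. Cells needed 200 or more detected genes and no more than 20% mitochondrial UMIs, and barcodes present in more than 1 library were left out. A cell took the class whose marker list (17 lists) had most UMIs, if at least 3 and at least 2 times those of every other list; no doublet caller was run, and removal of the deepest 5% of cells was an alternative.

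UMI counts were summed per class and library and tested with edgeR 4.0.16 in R 4.3.3 (quasi-likelihood test, TMM, filterByExpr, library as a block between classes, two-sided, Benjamini-Hochberg over all genes tested, threshold 0.05). DESeq2 1.42.0 was an alternative. Marker genes were left out of counts of called genes. Standard errors were taken from the fold change and the F statistic. The code was tested on simulated data. Replicates are pools, so p-values measure the spread between these libraries.

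All 10 members were named, with pathway genes under the threshold (at most 4 per list and direction by size) and, for members with a mean of at least 20 CPM in some class, the genes with the highest Pearson r among those with at least 50 CPM. CPM have exact Poisson and shares exact binomial 95% intervals, with a floor of 3 counts for 0 UMIs; they cover counting error only. The test between classes and treatment and the split of monocyte- and macrophage-like cells were added after the data were seen.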

Additional observations from a re-analysis of the deposited data

Results flagged for a closer look

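The difference between niacin and vehicle libraries was not the same in microglia-like and monocyte- and macrophage-like (MDM-like) cells for 3 genes, by edgeR's test of the interaction of class and group, which rests on 1 vehicle library. For *Cd14* the difference was 1.96 on the log2 scale, with opposite directions in the 2 classes as wholes. In MDM-like cells of the *Ear2* kind, *Cd14* was lowest in the vehicle library, on 2, 15 and 15 UMIs, with overlapping exact intervals. For *Tlr7* it was -1.51, with a lower level in the niacin libraries in microglia-like cells and a value of 0.92 that did not pass in MDM-like cells. For *Tlr3* it was 8.45, a fitted value that rests on 0 UMIs in both niacin libraries of MDM-like cells and is no bound. With the deepest copy of shared barcodes kept, the differences were 2.19, -1.13 and 2.97 for *Cd14*, *Tlr7* and *Tlr3*. The kinds of MDM-like cells differed between the libraries, and the part of this in the differences was not tested.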

How the results depend on the processing

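Of 438 alternative values of member fold changes, 400 kept their direction and, where tested, their side of the threshold. Treatment values with 1 niacin library left out carry no test and counted as kept if they moved by less than the standard error. Of the rest, 11 lost and 18 gained significance, 7 turned direction and 2 moved beyond the standard error. The values that turned did not pass the test in the reported comparison. Between microglia-like and MDM-like cells they were *Tlr2* without niacin replicate 1 (-0.031, and up to 0.71 with another library left out) and *Tlr7* without vehicle replicate 2 (-0.28, and up to 0.60). Between neutrophil-like and MDM-like cells it was *Tlr13* without vehicle replicate 2 (-0.053, and up to 0.83). For niacin in microglia-like cells they were *Tlr3* without the 5% of cells with most UMIs (-0.051) and without niacin replicate 2 (-0.040, and 0.12 without niacin replicate 1), and *Tlr4* with all barcodes kept (-0.033) or the deepest copy kept (-0.021).

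Genes called numbered 3054 between microglia-like and MDM-like cells, 4891 with all barcodes kept and 2004 to 3362 with 1 library left out. Between neutrophil-like and MDM-like cells 867 were called, 2248 with all barcodes kept, 1879 with the deepest copy kept, 1503 without the low-count filter and 319 to 1266 with 1 library left out. In B cell-like against T cell-like cells 753 were called, 469 by DESeq2 and 477 to 731 with 1 library left out; with a margin of 10 times every other list this comparison could not be fitted. For niacin in microglia-like cells 1730 were called, 2794 with all barcodes kept, 2845 with the deepest copy kept and 123 by DESeq2. For niacin in MDM-like cells 740 were called, 1884, 1709 and 90 in the same order. The interaction called 486 genes, 1136 with all barcodes kept and 999 with the deepest copy kept. The causes of these shifts were not tested. Without the library as a block, 3186, 789 and 592 genes were called in the 3 comparisons of classes, and the replicate block changed no call of a member. Members with their highest mean level in microglia-like cells numbered 4. This number was 7 with the margin of 10 times every other list and 3 to 5 with 1 library left out. With the deepest copy kept they also included *Tlr2* (114 CPM, against 88.0 CPM in MDM-like cells). So did *Tlr1*, at 34.3 CPM against 33.7 CPM in B cell-like cells. *Tlr13* and *Myd88*, highest in neutrophil-like cells without shared barcodes, were then highest in MDM-like cells. Members with a thinned share above T cell-like cells in every library numbered 7, and 7 to 9 under the alternatives.

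No paired analysis was possible because the sample labels give no pairing of vehicle and niacin libraries. With 1 niacin library left out, treatment values carry no test. In B cell-like cells no member had enough UMIs to be tested without the shared barcodes.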

Other observations

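Border-associated macrophage-like cells were too few to compare, at 2, 3 and 4 cells. Their summed *Cd14* was 4, 22 and 1 UMIs, or 857 (exact 95% interval 233 to 2194), 2411 (1511 to 3650) and 60.1 (1.52 to 335) CPM.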
